A study of Mus musculus with 16 samples.

Results

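The levels of 6 genes of the neural cytoskeleton were compared in the brain and cord of Nova1/2 double knockout embryos and of wild type embryos. They are Nefl, Nefm and Nefh, which encode the light, medium and heavy neurofilament chains, Ina, which encodes alpha-internexin, Vim, which encodes vimentin, and Nes, which encodes nestin. They were chosen by name as a set of neurofilament and other intermediate filament genes of neural cells, out of 21634 gene symbols on the array, of which 14570 were tested. A probe set, the group of probes that reads one stretch of a transcript, was assigned to a member where the platform annotation gave it that gene symbol and no other. The 6 genes had 78 probe sets, and 70 of these lay above the background floor described next. All 6 members passed the rule for testing, which asked for at least 3 such probe sets.

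Total RNA was measured on 16 Affymetrix exon arrays from CD1 mouse embryos at age E18.5 (late gestation), with 1 array for each biological replicate. The groups were Nova1/2 double knockout (dKO) whole brain, wild type (WT) whole brain, dKO spinal cord and WT spinal cord, with 4 arrays each. CD1 is an outbred stock, and all embryos shared it. Whether a brain and a cord of the same number came from 1 embryo is not given in the labels, and in WT the sex read from Xist differed for all 4 numbers. Nova1 and Nova2 bind RNA in neurons and steer the choice of alternative exons. The labels do not say which parts of the 2 genes the knockout alleles remove. The deposited intensities were taken as log2(intensity + 16), and the floor was 6.73, the median of the mean values of all probe sets. Each gene was given 1 level per array, the middle value among those of its probe sets that lie above the floor. Levels can be compared between arrays for 1 gene but not between genes, since probes differ in brightness. Adjusted p-values are from limma's two-sided moderated test over all 14570 genes with Benjamini-Hochberg adjustment, and a gene with an adjusted p below 0.05 is called higher or lower.

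Neurofilaments are the main intermediate filaments of mature axons and set axon calibre. The light chain is needed for assembly, while the medium and heavy chains carry long tails that are phosphorylated in the axon. Alpha-internexin joins the other chains in central neurons and appears early, whereas the heavy chain appears late, as axons mature. Vimentin and nestin form the filaments of radial glia and neural progenitors, and both are also made outside neurons, vimentin in mesenchymal and endothelial cells and nestin in young muscle and vessels.

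The labels were checked first. Nova1 levels were 4.64 to 5.51 in dKO brains against 10.0 to 10.72 in WT brains, and 6.28 to 6.54 in dKO cords against 11.52 to 11.94 in WT cords. Nova2 was called lower but stayed above the floor, at 7.77 to 8.03 in dKO brains against 8.45 to 8.79 in WT brains (-0.75, adjusted p = 0.00162), and at 7.17 to 7.41 in dKO cords against 8.23 to 8.63 in WT cords (-1.14, adjusted p = 2.43e-06). Which Nova2 probe sets lie in the deleted part is not given in the labels, so its level does not measure the loss of the protein. Hoxc8, a patterning gene of the trunk, lay at 10.52 to 10.88 in cords and at 5.12 to 6.69 in brains. Neurod6 and Emx1, read as markers of brain, overlapped between the tissues. Neurod6 ran from 7.06 to 11.34 in brains and from 7.29 to 8.45 in cords. Emx1 ran from 6.46 to 8.24 in brains and from 6.62 to 7.07 in cords. The reason was not tested. Scores of 9 skeletal muscle genes (the mean of their levels) ran from 7.4 to 9.7 in dKO cords and from 7.52 to 10.2 in WT cords, and lay above 8 on dKO cords 2 and 4 and WT cords 1 and 4. The changes of the members and of the gene lists in cord were therefore also computed without these 4 arrays. From Xist, dKO brains were 4 females, WT brains 2 females and 2 males, dKO cords 3 females and 1 male, and WT cords 2 of each sex. The double knockout was compared with wild type in whole tissue, where fewer cells of a type and less RNA per cell cannot be told apart.

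**Figure D1:**
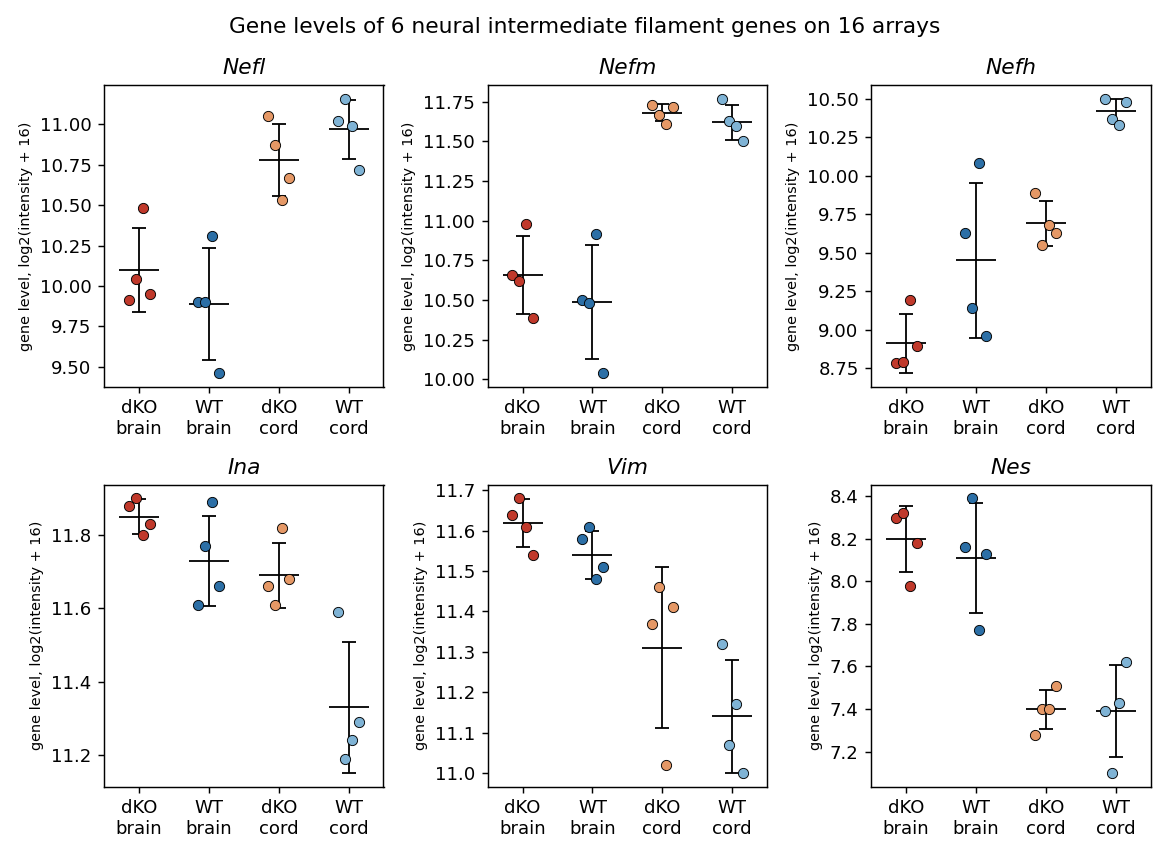
Gene level, as log2(intensity + 16), of the 6 members on each of the 16 arrays. Each point is 1 array, and the bars give the mean and SD of 4 arrays. For Nefh the dKO cords (9.55 to 9.89) lie below all WT cords (10.33 to 10.5), while dKO brains (8.78 to 9.19) and WT brains (8.96 to 10.08) overlap. The vertical axes differ between genes.

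In spinal cord, Nefh was lower and Ina higher in the double knockout. Nefh was at 9.89, 9.55, 9.68 and 9.63 in dKO cords 1 to 4, against 10.5, 10.37, 10.33 and 10.48 in WT cords 1 to 4. All dKO cords lay below all WT cords. The change was -0.73 on the log2 scale (SE 0.173, 1.66-fold lower, adjusted p = 0.0162, n = 4 per group). Nefh was the only neurofilament chain gene called lower.

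Ina was at 11.66, 11.61, 11.82 and 11.68 in dKO cords, against 11.59, 11.19, 11.24 and 11.29 in WT cords. The groups did not overlap, although WT cord 1 came within 0.02 of the lowest dKO cord. The change was 0.36 (SE 0.0987, 1.29-fold higher, adjusted p = 0.0351). Over all genes, 4.55% were called lower and 1.08% higher. Alpha-internexin is a partner of the neurofilament chains in the same filaments. The 2 called members moved in opposite directions.

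The other 4 members were not called in cord. Nefl was at 11.05, 10.87, 10.53 and 10.67 in dKO cords, against 11.02, 11.16, 10.99 and 10.72 in WT cords, a change of -0.19 (95% interval -0.53 to 0.15, adjusted p = 0.576). Nefm was at 11.73, 11.67, 11.61 and 11.72 in dKO cords, against 11.77, 11.63, 11.6 and 11.5 in WT cords, a change of 0.06 (interval -0.25 to 0.36, adjusted p = 0.883). For both chains the genotypes overlapped, and a change the size of that of Nefh lay outside both intervals. Vim ran from 11.02 to 11.46 in dKO cords and from 11 to 11.32 in WT cords, a change of 0.17 (interval -0.04 to 0.39, adjusted p = 0.384). Nes ran from 7.28 to 7.51 in dKO cords and from 7.1 to 7.62 in WT cords, a change of 0.01 (interval -0.26 to 0.28, adjusted p = 0.97).

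Of the 6 members, then, 1 was lower and 1 higher in dKO cord, where 5.63% of all genes tested were called. Both were without overlap between genotypes, as 11.5% of all genes were. The median change was 0.04 over the members and -0.03 over all genes. The call of Nefh ended without WT cord 1 (adjusted p = 0.0504), dKO cord 2 (0.0601) or dKO cord 4 (0.0522), and that of Ina without WT cord 2 or 3 or any 1 of the 4 dKO cords (0.0532 to 0.118), with the direction kept each time. Without the 4 cords rich in muscle RNA, Nefh changed by -0.57 (adjusted p = 0.407) and Ina by 0.53 (adjusted p = 0.0754), with 2 arrays left in each group. Nefl then changed by -0.29 (adjusted p = 0.691), Nefm by 0.06 (0.954), Vim by 0.07 (0.878) and Nes by 0.08 (0.906). Ina was also not called with a term for sex (0.32, adjusted p = 0.054).

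The Nefh probe sets all pointed the same way. All 13 above the floor had a lower mean in dKO cord, by 0.42 to 1.31 with a median change of -0.93, and for 12 of the 13 the genotypes did not overlap. Over all probe sets of tested genes, 53.7% had a lower mean in dKO cord and 6.13% were lower without overlap. Probe set 5521851, the brightest of Nefh in WT cord, was at a mean of 11.7 in dKO cord and 12.65 in WT cord. Probe set 4644713, which changed most, was at 8.45 in dKO cord and 9.77 in WT cord, and probe set 5054169, which changed least, was at 8.25 in dKO cord and 8.66 in WT cord. Of these 13, 11 changed by more than the gene level did or by as much. The level takes the middle probe set on each array. By group means that was probe set 4952927 in both cord groups, at 9.69 in dKO cord and 10.42 in WT cord. The change of Nefh was -0.91 with the mean over probe sets (adjusted p = 0.000935) and -0.95 where each probe set was first set to its own mean (adjusted p = 0.00121). Without the 4 cords rich in muscle RNA, all 13 were still lower, by 0.55 to 1.1, with 2 arrays a side. The share over all probe sets was not computed for these arrays, and the 13 share the same arrays.

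The probe sets of the other chains showed smaller changes. All 6 of Ina were higher in dKO cord, by 0.21 to 0.38, and 3 did not overlap, where 46.3% of all probe sets had a higher mean and 3.73% were higher without overlap. All 7 of Nefl were lower, by 0.04 to 0.81, and none was without overlap. Without the 4 cords rich in muscle RNA, 6 of the 7 were lower and 1 was higher, with 2 arrays a side. The largest fall over all cords, 0.81, was at the dim probe set 5546625, with means of 6.63 in dKO cord and 7.44 in WT cord. Of the 9 of Nefm, 3 were lower and 6 higher (-0.11 to 0.2).

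**Figure D2:**
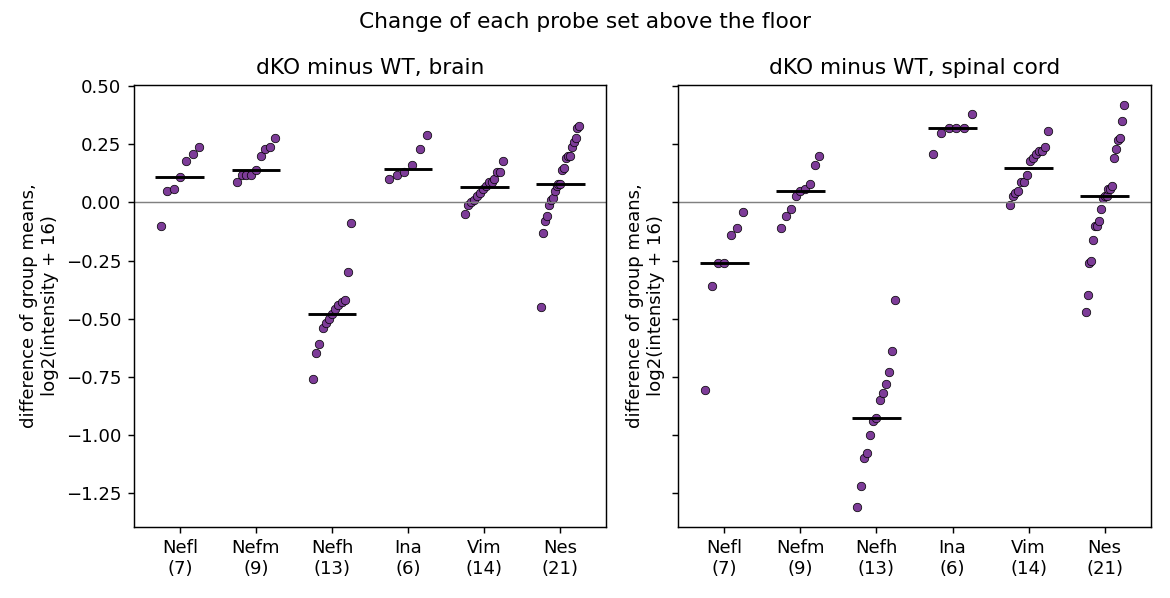
Difference of the group means (dKO minus WT) of every member probe set above the floor, in brain and in spinal cord, on the log2(intensity + 16) scale. Each point is 1 probe set, the number of probe sets is in brackets, and the black line is their median. All 13 Nefh probe sets lie below 0 in both tissues, with medians of -0.48 in brain and -0.93 in cord, and all 6 Ina probe sets lie above 0.

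In brain no member was called. Nefh came closest, at 8.78, 8.79, 9.19 and 8.89 in dKO brains 1 to 4, against 9.63, 9.14, 10.08 and 8.96 in WT brains 1 to 4. The groups overlapped, since dKO brain 3 lay above WT brains 2 and 4. The change was -0.54 (SE 0.173, 95% interval -0.9 to -0.18, adjusted p = 0.446), and with the replicate number as a block, since same-numbered brain arrays deviated together, the adjusted p was 0.12. Each dKO brain lay below the WT brain of its own number. All 13 Nefh probe sets had a lower mean in dKO brain, by 0.09 to 0.76, where 44.9% of all probe sets did, and 3 did not overlap, against 1.82% of all. All 6 Ina probe sets had a higher mean in dKO brain, by 0.1 to 0.29, where 55.1% of all did, and 1 was without overlap, against 1.92% of all.

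The other members moved by little in brain. Nefl changed by 0.21 (interval -0.13 to 0.55), Nefm by 0.18 (-0.13 to 0.48), Ina by 0.12 (-0.09 to 0.32), Vim by 0.07 (-0.14 to 0.29) and Nes by 0.08 (-0.19 to 0.35), each with an adjusted p of 1 by limma. Of the 6 members 0 were called at this threshold and 1, Nefh, had an unadjusted p below 0.05 (0.00561). Over all genes 0.268% were called and 5.33% had an unadjusted p below 0.05. The median change was 0.1 over the members and 0.02 over all genes.

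Both brain arrays of number 3 stood high in the neurofilament chains. Nefl was at 10.48 in dKO brain 3 and 10.31 in WT brain 3, against 9.91 to 10.04 in the other dKO brains and 9.46 to 9.9 in the other WT brains. Nefm was at 10.98 in dKO brain 3 and 10.92 in WT brain 3, in each case the highest of its group. Nes was the lowest of its group on the same arrays, at 7.98 in dKO brain 3 and 7.77 in WT brain 3. Without both arrays the change of Nefh in brain was -0.42 (adjusted p = 0.497).

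The change in cord was set against the change in brain for each member, and no difference was called. For Nefh the fall was larger in cord by 0.19 (interval of the difference -0.7 to 0.32, adjusted p = 0.901). With the mean over probe sets Nefh changed by -0.91 in cord and by -0.48 in brain. Under other processing settings the Nefh difference ran from -0.54 to -0.03 and was not called in any. For Ina the difference was 0.25 (interval -0.05 to 0.54, adjusted p = 0.695). For Nefl it was -0.4 (interval -0.88 to 0.08, adjusted p = 0.697). Of the 6 members, 0 were called by limma and 0 had an unadjusted p below 0.05; over all 14570 genes 0% were called and 8% had an unadjusted p below 0.05. So the call of Nefh and Ina in cord and its absence in brain do not show that the tissues differ.

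The chains were also set against each other on the same array, as the difference of their log2 levels. Such a difference has no meaning as an amount, but it shows unequal change between genotypes. Nefh minus Nefm was -1.88, -1.83, -1.79 and -1.49 in dKO brains, against -0.87, -1.34, -0.84 and -1.08 in WT brains. In cord it was -1.83, -2.11, -1.93 and -2.08 in dKO, against -1.28, -1.26, -1.27 and -1.02 in WT. In both tissues every dKO array lay below every WT array.

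Nefh minus Nefl showed the same separation in both tissues, from -1.29 to -1.06 in dKO brains against -0.75 to -0.23 in WT brains, and from -1.32 to -0.85 in dKO cords against -0.79 to -0.24 in WT cords. Ina minus Nefh ran from 1.77 to 2.14 in dKO cords, against 0.81 to 1.09 in WT cords. In brain it ran from 2.6 to 3.11 in dKO and from 1.81 to 2.7 in WT, where dKO brain 3 lay below WT brains 2 and 4. These pairs of genes were picked after their levels had been seen, so no test is given.

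**Figure D3:**
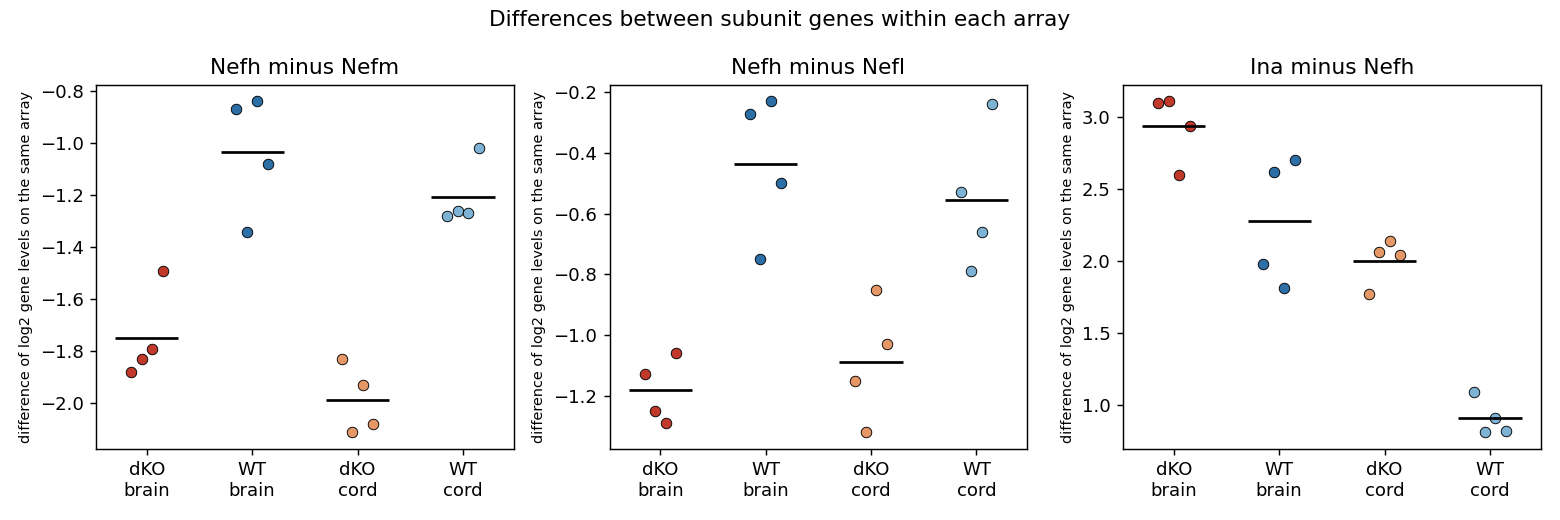
Difference of the log2 gene levels of 2 chains on the same array, for Nefh minus Nefm, Nefh minus Nefl and Ina minus Nefh. Each point is 1 array and the line is the mean of 4. Nefh minus Nefm lies at -1.88 to -1.49 in dKO brains and -1.34 to -0.84 in WT brains, with no overlap, and likewise in cord.

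Whether any part of a member transcript changed apart from its gene was read from the exon index, the log2 value of a probe set from which the gene level of that array is subtracted. It was tested over 193126 probe sets, taking the genes for which 5 or more were above the floor. None of the 70 member probe sets was called between genotypes by limma, in brain (lowest adjusted p 0.682, 3 at an unadjusted p below 0.05) or in cord (lowest adjusted p 0.107, 10 at an unadjusted p below 0.05). Over all probe sets 0.15% were called in brain and 0.388% in cord, and 3.3% and 11.8% of them had an unadjusted p below 0.05. Of the 10 in cord, 6 belong to Nefh and 4 to Nes. Those 6 of Nefh all had a negative index change, from -0.59 to -0.2. The Nefh level that was subtracted fell by less than most Nefh probe sets, as described above. The difference between the tissues in this change was called for 0 of the 70, with 4 at an unadjusted p below 0.05, and for 0.000518% of all probe sets, of which 5.67% had an unadjusted p below 0.05.

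Between the tissues the members moved in both directions. The 3 neurofilament chains were higher in spinal cord than in brain, and Ina, Vim and Nes were lower. In WT embryos Nefl changed by 1.08 in cord against brain (SE 0.163, 2.12-fold, adjusted p = 3.16e-05), Nefm by 1.14 (SE 0.146, 2.2-fold, adjusted p = 7.27e-06) and Nefh by 0.97 (SE 0.173, 1.95-fold, adjusted p = 0.000152). Every WT cord lay above every WT brain for all 3 chains. Nefm, for example, was at 11.77, 11.63, 11.6 and 11.5 in WT cords, against 10.5, 10.48, 10.92 and 10.04 in WT brains.

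Ina changed by -0.41 in WT cord against WT brain (SE 0.0987, adjusted p = 0.00182) and Vim by -0.4 (SE 0.102, adjusted p = 0.00248). Nes changed by -0.73 (SE 0.129, adjusted p = 0.000136), from 7.1 to 7.62 in WT cords and from 7.77 to 8.39 in WT brains. For each of these 3 every WT cord lay below every WT brain. All 6 members were called, also without the 4 cords rich in muscle RNA, 3 higher and 3 lower, where 60.4% of all genes were called, 20.6% higher and 39.8% lower, and 40.9% did not overlap, 14.6% higher and 26.3% lower. The median change was 0.28 over the members and -0.16 over all genes.

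In dKO embryos, 5 of the 6 were called in the same directions, where 66.4% of all genes were called, 18.6% higher and 47.8% lower. Nefl changed by 0.68 in dKO cord against dKO brain (adjusted p = 0.00133), Nefm by 1.02 (adjusted p = 1.67e-05) and Nefh by 0.78 (adjusted p = 0.000782). Vim changed by -0.3 (adjusted p = 0.014) and Nes by -0.8 (adjusted p = 4.91e-05). Without the 4 cords rich in muscle RNA the same 5 were called. Ina was not called, at -0.16 (interval -0.37 to 0.05, adjusted p = 0.155). The WT and dKO tissue changes of a member differ by the same amount as the knockout changes of cord and brain, none of which was called.

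The order of the 4 groups follows from these values. For Nefl and Nefm both cord groups lay above both brain groups, and the genotypes within a tissue overlapped. For Nefh the order from high to low was WT cord, dKO cord, WT brain and dKO brain, where dKO cords and WT brains overlapped (9.55 to 9.89 in dKO cords, 8.96 to 10.08 in WT brains), as did the brain groups. For Ina it was dKO brain (11.85 ± 0.0472, SD, n = 4), WT brain (11.73 ± 0.123), dKO cord (11.69 ± 0.0891) and WT cord (11.33 ± 0.179), and every neighbouring pair overlapped except dKO cord and WT cord. For Vim and Nes both brain groups lay above both cord groups, with overlap between genotypes in each tissue.

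The arrays of the 2 tissues differ in overall brightness, with median intensities of 99.5 to 116.2 in cord and 72.3 to 82.9 in brain. Centring each array on its median moved the median change of all genes from -0.16 to -0.53 in WT cord against WT brain, and from -0.24 to -0.68 in dKO. It also lowered the share of higher genes among all called from 34.1% to 7.02% in WT and from 28% to 5.53% in dKO, and quantile normalization lowered it to 24.3% in WT. Against that shift, Nefl was at 0.71, Nefm at 0.77, Nefh at 0.59 and Nes at -1.1 in WT, and both Ina and Vim at -0.78, all still called. In dKO the calls of Nefl (0.25, adjusted p = 0.166) and Nefh (0.34, adjusted p = 0.0752) ended and Ina was called (-0.59, adjusted p = 2.8e-06). With quantile normalization the call of Vim ended in WT (-0.2, adjusted p = 0.0697) and in dKO (-0.08, adjusted p = 0.428), and Ina turned to 0.03 in dKO (adjusted p = 0.789).

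The tissue change of Nefh depends on how its probe sets are joined. All 13 were higher in WT cord than in WT brain, by 0.84 to 2.22 with a median of 1.74, and none overlapped, where 38.6% of all probe sets had a higher mean and 10.8% were higher without overlap. The change of the gene was 1.62 with the mean over probe sets (adjusted p = 3.48e-07) and 1.71 where each probe set was first set to its own mean (adjusted p = 3.75e-07), against 0.97 with the median. In dKO these values were 1.18 and 1.27, against 0.78.

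**Figure D4:**
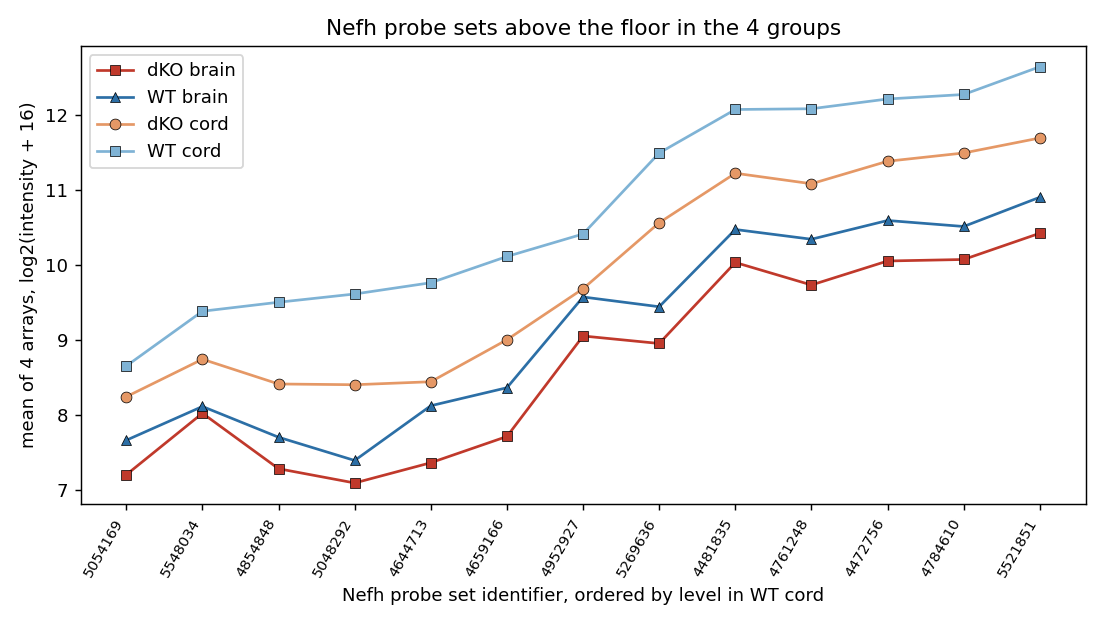
Mean over 4 arrays of each of the 13 Nefh probe sets above the floor in the 4 groups, as log2(intensity + 16), ordered by the level in WT cord. Each line is 1 group. WT cord lies above dKO cord at all 13 probe sets, by 0.42 to 1.31, and WT brain lies above dKO brain at all 13, by 0.09 to 0.76.

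The exon index between tissues was called for 21 of the 70 member probe sets in WT, 18 higher and 3 lower in cord, where 22% of all probe sets were called. Of the 18, 10 belong to Nefh, where the gene level understates the change as just described. Vim had 3 higher and 2 lower. Its probe set 5116704 was at 11.18 in WT cord and 12.15 in WT brain, a change of -0.96, while probe set 5335218 was at 8.37 in WT cord and 7.75 in WT brain. Ina had 2 higher and 1 lower, and Nes 3 higher, those of Nes at probe sets whose own change was 0.02 to 0.16 on a gene that fell by 0.73.

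Ina, Vim and Nes, the members lower in cord than in brain, are also the 3 with a promoter window in the RefSeq sequence table of build GRCm38.p6. The 250 bases before the annotated start are shown for these 3 so that their promoters can be compared. Capitals mark the GC box (the letters GGGCGG), the CCAAT box (the letters of its name) and the TATA box (the letters TATAAA), each searched on both strands, so that a box on the other strand appears as its reverse complement. The window of Ina is chr19:47014431-47014680, that of Vim chr2:13574061-13574310 and that of Nes chr3:87970843-87971092, all on the + strand.
Ina: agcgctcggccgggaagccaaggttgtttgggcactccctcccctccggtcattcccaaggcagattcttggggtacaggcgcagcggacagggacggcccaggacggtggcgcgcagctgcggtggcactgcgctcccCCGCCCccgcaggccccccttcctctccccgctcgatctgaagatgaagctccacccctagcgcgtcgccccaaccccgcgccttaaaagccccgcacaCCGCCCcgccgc
Vim: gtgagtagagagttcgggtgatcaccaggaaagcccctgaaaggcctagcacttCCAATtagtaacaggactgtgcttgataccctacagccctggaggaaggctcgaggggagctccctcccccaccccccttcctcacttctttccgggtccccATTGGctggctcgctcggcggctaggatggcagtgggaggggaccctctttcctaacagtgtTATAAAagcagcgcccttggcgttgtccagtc
Nes: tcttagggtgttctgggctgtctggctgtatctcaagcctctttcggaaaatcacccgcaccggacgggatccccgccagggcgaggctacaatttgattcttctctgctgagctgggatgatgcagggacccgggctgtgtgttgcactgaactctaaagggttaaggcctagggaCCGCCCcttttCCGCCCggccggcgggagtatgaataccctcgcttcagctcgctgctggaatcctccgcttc
Ina and Nes held 2 GC boxes each and no CCAAT or TATA box. Vim held 2 CCAAT boxes and 1 TATA box and no GC box. Of 32851 such windows in the table, 32.7% held a GC box, 33.8% a CCAAT box and 12.4% a TATA box. The G and C content was 70.8% in Ina, 58.4% in Vim and 58.8% in Nes, against a median of 52.4% over all windows. These matches describe the letters and are not shown to be sites in use.

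Relatives of the members were read from a list of 14 other intermediate filament genes, of which 13 were tested. Gfap, the filament of astrocytes, was called lower in dKO cord, with levels of 8.4 to 9.01 in dKO cords and 8.92 to 9.96 in WT cords, a change of -0.85 (SE 0.201, adjusted p = 0.0154), although the groups overlapped. Without the 4 cords rich in muscle RNA the change was -0.83 and was not called (adjusted p = 0.164). Gfap was the 1 of 13 called there, and 0 were called in brain, where limma gave 1 an unadjusted p below 0.05. Of 7 astrocyte markers, 4 were also called lower in dKO cord, namely S100b, Aldoc, Glul and Slc1a2. Over all genes, 4.55% were called lower and 1.08% higher in dKO cord. The mean astrocyte score ran from 9.29 to 9.56 in dKO cords and from 9.56 to 9.98 in WT cords. Prph, which encodes peripherin, the filament of peripheral and motor neurons, ran from 9.56 to 9.95 in dKO cords and from 9.5 to 9.95 in WT cords, a change of 0.09 (interval -0.37 to 0.55, adjusted p = 0.879).

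Between the tissues, 4 of the 13 were higher and 2 lower in WT cord, where 20.6% of all genes were called higher and 39.8% lower. Prph changed by 1.63 (adjusted p = 1.22e-05), Gfap by 1.49 (adjusted p = 1.22e-05) and Des, the desmin gene of muscle, by 0.83 (adjusted p = 0.00207), and Sync also rose. The nuclear lamin genes Lmnb1 (-1.12) and Lmnb2 (-0.64) fell. In dKO cord against dKO brain, 3 (Sync, Prph and Des) were higher and the same 2 lamin genes lower.

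A second list held 21 genes whose products act on neurofilaments as kinases, linkers, carriers or turnover factors, and 18 were tested. Of these 0 were called by limma between genotypes in either tissue, with 0 at an unadjusted p below 0.05 in brain and 4 in cord. In WT cord against WT brain 12 were lower and 1 higher, where 39.8% of all genes were called lower and 20.6% higher. Cdk5r1, an activator of the kinase Cdk5, fell by 0.89 (adjusted p = 5.13e-06), as did Kif5b, a motor that moves cargo along axons (-0.85, adjusted p = 6.92e-06), the kinase gene Mapk3 (-0.89) and the ubiquitin ligase gene Trim2 (-0.61). The linker gene Plec1 rose by 0.69 (adjusted p = 3.77e-05). In dKO, 1 was higher and 13 lower, where 18.6% of all genes were called higher and 47.8% lower.

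Markers of cells that make these filaments were read beside the members, and their part in the results was not tested. Between genotypes, 4.55% of all genes were called lower and 1.08% higher in cord, and 0.268% were called in brain. Of 5 motor neuron markers tested 0 were called between genotypes in brain or cord (1 at an unadjusted p below 0.05 in each tissue), and the score ran from 7.93 to 8.0 in dKO cords and from 7.88 to 8.09 in WT cords. Slc18a3 and Mnx1, the other listed motor neuron markers, were not among the genes tested. Of 6 sensory ganglion markers 0 were called between genotypes (2 at an unadjusted p below 0.05 in cord, 0 in brain), with scores of 7.69 to 7.85 in dKO cords and 7.59 to 7.73 in WT cords. Of 9 pan-neuronal markers 1, the neuronal enolase gene Eno2, was lower in dKO cord, and the scores ran from 10.61 to 10.88 in dKO cords and from 10.71 to 10.99 in WT cords. Of 7 microglia markers 4 were lower in dKO cord, with scores of 7.48 to 7.79 in dKO cords and 7.93 to 8.49 in WT cords. Of 2 erythroid markers 1, Alas2, which makes haem, was lower (-0.96, adjusted p = 0.00161), with scores of 7.91 to 8.11 in dKO cords and 8.4 to 8.71 in WT cords, which do not overlap. Of 4 Schwann cell markers 1, the neurotrophin receptor gene Ngfr, was higher (0.4, adjusted p = 0.0451). Pmp22 changed by -0.3, Sox10 by -0.2 and Egr2 by 0.01, none of them called. The Schwann cell scores were 8.55 to 8.67 in dKO cords and 8.53 to 8.81 in WT cords. Of 7 progenitor markers 1, Hes5, was higher, while the median change of the 7 was -0.04. The progenitor scores overlapped, at 8.84 to 9.01 in dKO cords and 8.89 to 8.96 in WT cords. Of the muscle, fibroblast and endothelial markers, 0 of 9, 0 of 6 and 0 of 7 were called. By limma 0 had an unadjusted p below 0.05 in each of these 3 lists. Without the 4 cords rich in muscle RNA, 1 marker of all these lists was called between genotypes in cord, the microglia marker C1qa, which was lower.

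For Vim and Nes, 5 of 7 neural progenitor markers and 6 of 6 cell cycle markers were lower in WT cord than in WT brain. So were 4 of 7 endothelial, 3 of 5 mural cell and 3 of 6 fibroblast markers. Over all genes, 39.8% were called lower and 20.6% higher. Of 7 astrocyte markers, 4 were higher in WT cord and 1 was lower. The progenitor count was 3 of 7 without the 4 cords rich in muscle RNA. The progenitor scores ran from 8.89 to 8.96 in WT cords and from 9.44 to 9.57 in WT brains, and the endothelial scores from 7.77 to 7.99 in WT cords and from 8.0 to 8.24 in WT brains. All 9 muscle markers were higher in WT cord. For the neurofilament chains, 3 of 5 motor neuron markers were higher in WT cord than in WT brain and 1, Isl1, was lower. Of the sensory ganglion markers 5 of 6 were higher, while 6 of 9 pan-neuronal markers were lower and 2 higher.

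The genes whose levels followed each member most closely over the 16 arrays are given as a description, since the arrays share tissue and genotype. For Nefh they were Slc6a5, the neuronal glycine transporter, Camta1 and Slc6a11, a GABA transporter (Pearson r of 0.967, 0.965 and 0.958). For Nefm they were Pax8, Ebf2 and Slc14a1 (0.985 to 0.989), for Nefl Fam70a, Gfra1 and Aqp4 (0.957 to 0.975), for Ina Srgap1, Rbm25 and Rnf111 (0.919 to 0.982), for Vim Gpr177, Tob1 and 1810030O07Rik (0.957 to 0.961), and for Nes Cttnbp2nl, Armc10 and Ube2g2 (0.969 to 0.982).

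Within the groups, as deviations from the 4 group means, Nefh went with 6330439K17Rik, the GABA receptor gene Gabbr2 and again Slc6a5 (0.918 to 0.924), Nefm with Ret, Zmat4 and Grm8 (0.914 to 0.951) and Nefl with Slc6a9, Tppp3 and Fam70a (0.892 to 0.919). Ina went with Ank3, Ep400 and Huwe1 (0.935 to 0.946), Vim with Ctso, Wdr1 and Lpcat3 (0.917 to 0.936) and Nes with A930024E05Rik, Cttnbp2nl and 4632404H12Rik (0.875 to 0.924). Among the members themselves, the deviations of the 3 neurofilament chains ran together over the 16 arrays (r of 0.85 for Nefl and Nefm, 0.8 for Nefm and Nefh and 0.73 for Nefl and Nefh). Nes ran against them (-0.69 with Nefl, -0.52 with Nefm and -0.62 with Nefh), and Ina followed none of the 3 closely (0.04, 0.36 and 0.27). Nefl and Nefm are neighbours on chromosome 14, with 0 protein-coding genes between them in the RefSeq order. The points share arrays and groups, and both brain arrays of number 3 are among them.

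**Figure D5:**
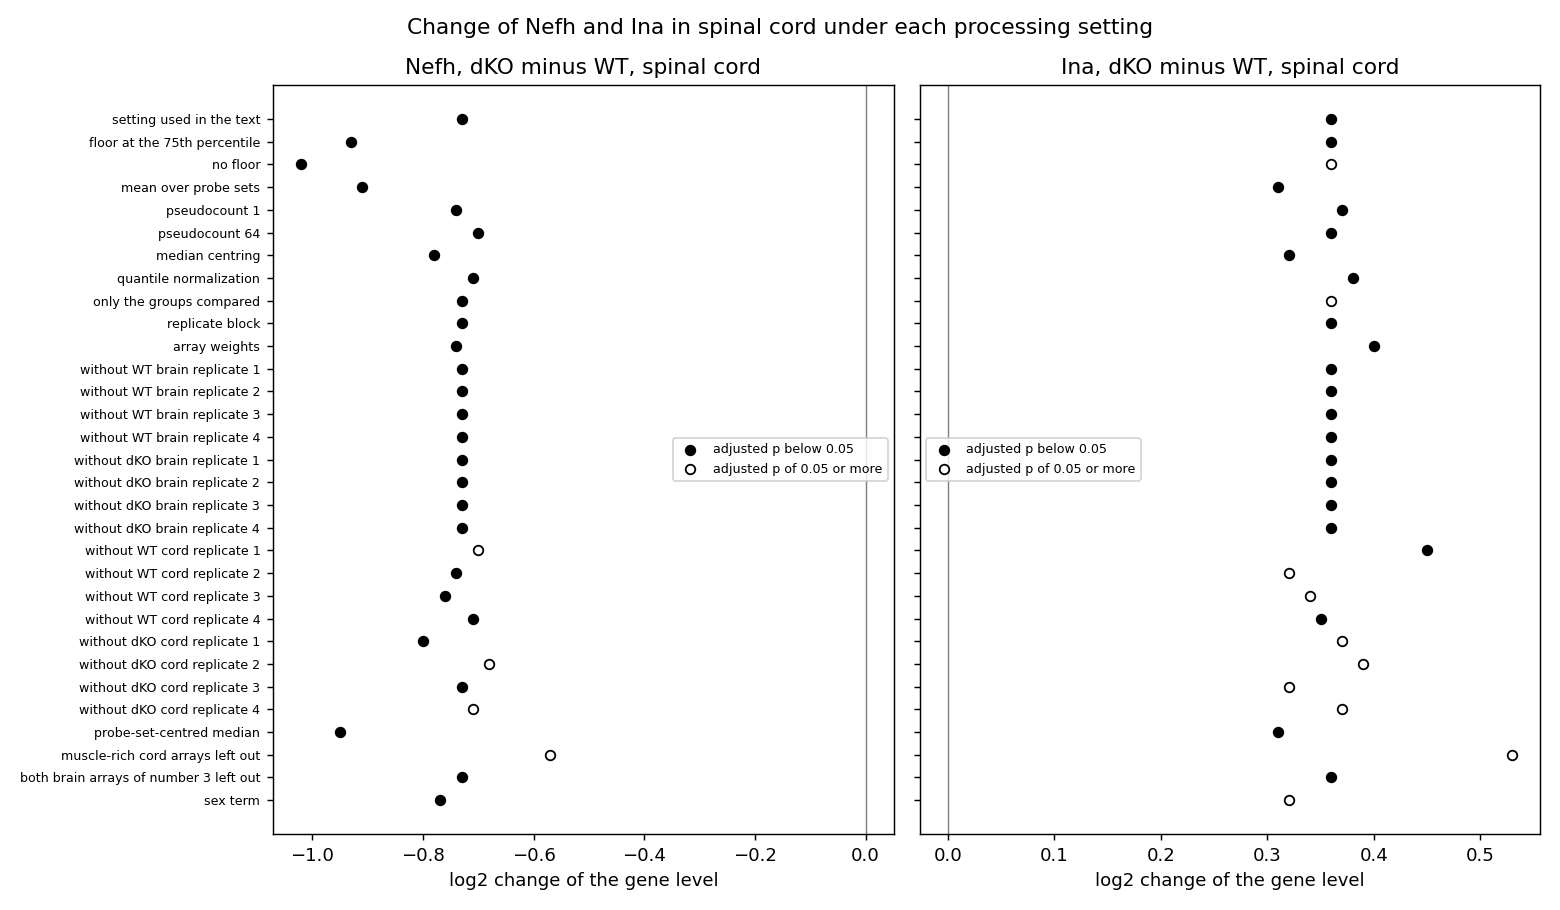
Change of the gene level of Nefh and of Ina in dKO cord against WT cord under the setting used in the text and 30 alternatives, on the log2 scale. Filled points have an adjusted p below 0.05 and open points do not. Nefh lies between -1.02 and -0.57 and Ina between 0.31 and 0.53, so the direction is the same in all of them while some calls end.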

How the data were processed

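The authors deposited 1 table of linear intensity values for 625534 probe sets on 16 arrays, for which Affymetrix Power Tools, PLIER and build mm8 are named in the submitters' processing notes, with versions not given in the sources used here. No positions in genes were used. Gene names came from the platform annotation, where 303629 probe sets have 1 symbol. Values were taken as log2(intensity + 16) without further scaling, and array numbers limit the precision. Gene levels were fitted with limma 3.58.1 in R 4.3.3 (lmFit and eBayes) on all 16 arrays with 1 mean per group and 12 residual degrees of freedom, and 5 comparisons were made. The exon index was fitted likewise. The fits were tried on simulated data with noise drawn independently for each array and each gene or probe set. That does not cover the shared deviations of same-numbered brain arrays or the muscle RNA.

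The members and the gene lists were chosen with earlier results of these data known. The text names the 6 members, Nova1 and Nova2, the called genes of the lists with the largest changes, and the 3 genes most correlated with each member. Same-numbered brain arrays deviated together (correlation 0.21 to 0.41 in 4 pairs), but cord arrays did not (-0.12 to 0). The main fit took no pairs, and the replicate number entered only as a block in an alternative fit. Highest correlation of gene levels within a group was 0.9868, so no array was counted as a copy. The labels name no batch. The alternatives were another floor, pseudocount, summary, scaling, replicate block, array weights, fits of only the groups compared and each array left out. After the data had been seen, the probe-set-centred median, the arrays left out for muscle RNA or for number 3, and the sex term were added.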

Additional observations from a re-analysis of the deposited data

How the results depend on the processing

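The number of members called in dKO cord against WT cord was 2. It was 1 with no floor, 1 with only the groups compared, 1 with the sex term and 0 without the 4 cords rich in muscle RNA. Leaving out 1 array at a time gave 0 to 2. Member probe sets called by exon index in cord numbered 0, and 1 with no floor or with quantile normalization, while single arrays left out gave 0 to 0. The calls in brain and in the difference between tissues stayed at 0 in every fit run. WT cord against WT brain gave 6 in all but quantile normalization, where it gave 5. With 1 array left out, dKO cord against dKO brain gave 4 to 5 and the exon index between WT tissues 18 to 23. The dKO tissue count was 6 with the mean over probe sets and with array weights. Ina was also called by limma in those 2 fits (adjusted p = 0.038 and 0.0177). No called member changed direction in any of the alternatives. Nefh in dKO cord kept its call in 26 of 30 alternatives (-1.02 to -0.57) and Ina in 20 of 30 (0.31 to 0.53); the cause was not tested. With the replicate number as a block no call between genotypes changed, and Nefh had an adjusted p of 0.00426 and Ina of 0.0435 in cord. The genes called in dKO cord numbered 820, against 1620 with quantile normalization, 1239 with median centring, 420 without dKO cord 4 and 100 without the cords rich in muscle RNA. In brain 39 were called, against 24 with only the groups compared and 143 with array weights, and in the difference 0, against 41 with array weights. With 4 arrays a group, small changes were beyond what these arrays could resolve.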
